A study of Mus musculus with 221 samples.

Results

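Mitochondria carry a small genome of their own, but nearly every protein that reads it is encoded in the nucleus. Promoters on the circular genome give long precursor RNAs, in which tRNAs punctuate the mRNAs and rRNAs. The precursors are cut at the tRNAs, the pieces are stabilized, polyadenylated or degraded, and the tRNAs are modified and charged with amino acids for translation on mitochondrial ribosomes. The genes described here are 46 nuclear genes of this pathway, listed by function: 4 for transcription, 4 for 12S rRNA methylation and the MTERF proteins, 3 for precursor cleavage, 5 for RNA stability, polyadenylation and decay, 7 for the FASTK family and RNA granules, 7 for tRNA modification and CCA addition, and 16 aminoacyl-tRNA synthetases. All 46 were among the 55291 genes of the count table, and 42 passed the low-count filter. The 4 that did not pass were Trmu, Aars2, Nars2 and Yars2.

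The RNA came from single early 2-cell mouse embryos, 99 sired by males on a low-fat diet (LFD) and the others by males on a high-fat diet (HFD). Of the HFD embryos 38 were numbered 31 to 70 and 84 had other numbers. All embryos of both groups were C57BL/6N in the nucleus and carried the mitochondrial DNA of the Staudach (ST) line through the oocyte. The groups differ, by their labels, in the diet of the sire. By the study's methods the males had eaten the diet for 2 weeks from 6 weeks of age, the sperm of 4 males per diet was frozen and thawed, and superovulated females gave the oocytes for in vitro fertilization. The labels tie no embryo to a sire, a date or a sex, so each embryo was taken as 1 replicate and the difference between diets cannot be told apart from that between the sires used. Smart-seq2 libraries gave 1937251 to 17246791 counts per embryo (median 5706066) and 11364 to 21638 detected genes. The 2-cell-stage transcript Zfp352 and the oocyte transcript Bmp15 had counts in every embryo. In 16 HFD embryos the summed level of macrophage transcripts lay above the highest LFD embryo, and 8 libraries (4 of each diet) had under 15000 detected genes.

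Transcript levels per length (RPKM, counts per 1000 bases of exon and 1000000 counts) differed widely among genes whose products work together. Nsun4, which methylates the 12S rRNA, was highest with a median of 57.9 RPKM over all embryos. Supv3l1, the helicase of the RNA degradation complex, followed at 45.02, and Tfb2m, the factor that opens the promoters for the polymerase, at 41.6. The other transcription genes were far lower, with Polrmt, the mitochondrial RNA polymerase, at 5.02, Tfam, which packages the genome and starts transcription, at 1.06, and the elongation factor Tefm at 0.549. The lowest medians were those of the tRNA thiolase Trmu and the synthetases Aars2 and Yars2, all at 0, with counts in 86, 64 and 77 of the embryos. Among the synthetases only Fars2 (22.3 RPKM) and Lars2 (21.1 RPKM) exceeded 20, and the median synthetase stood at 0.798. Partners of 1 complex had unequal counts too: Lrpprc, whose complex with Slirp protects mitochondrial mRNAs, had 1.03 RPKM and Slirp 12.4. The Slirp value may hold reads of other genes, as 97.8% of its exon length overlaps exons on the opposite strand.

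**Figure D1:**
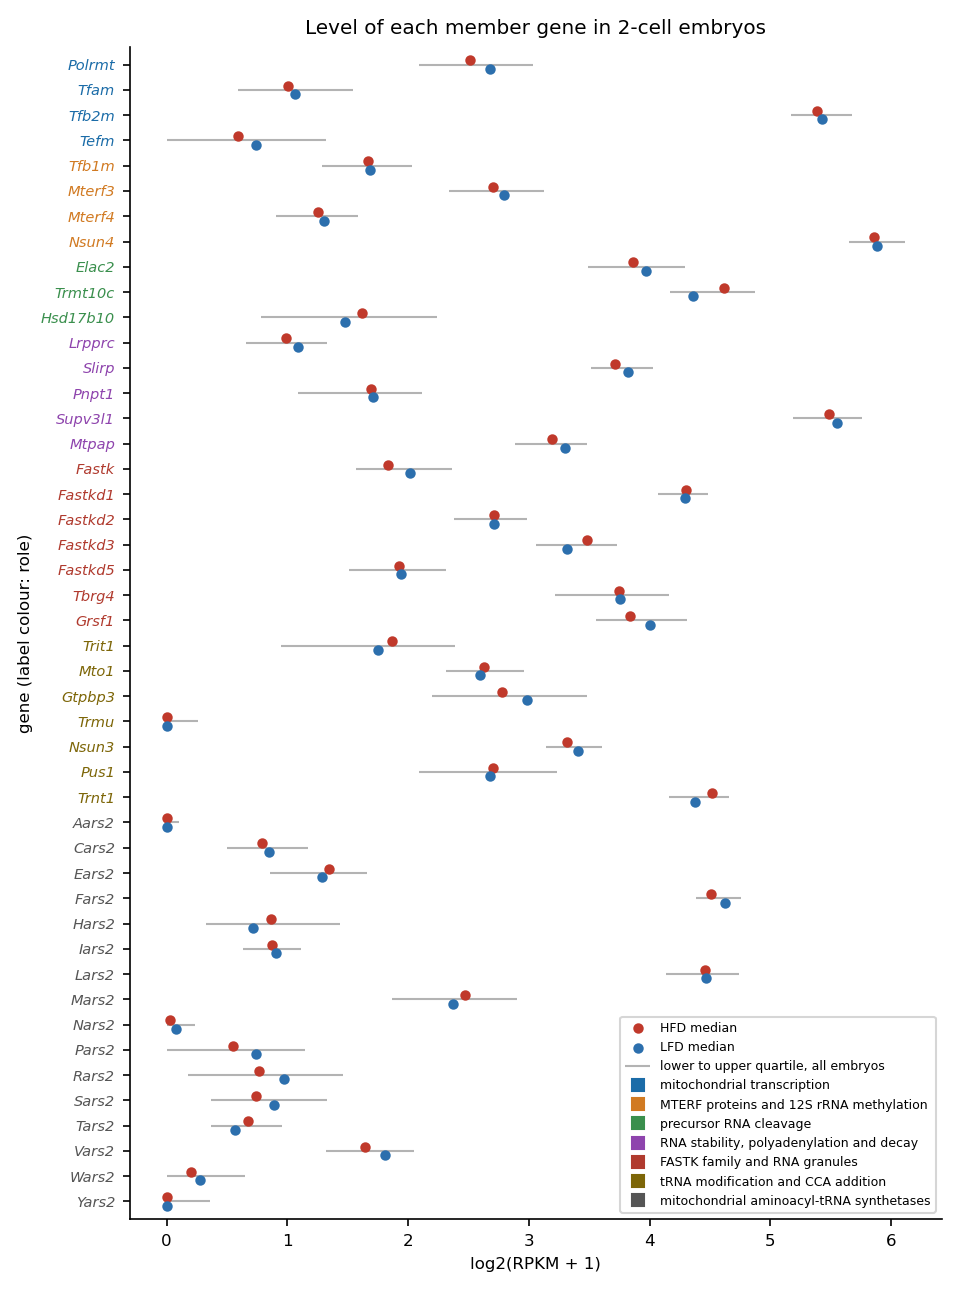
Median level of each of the 46 genes on the log2(RPKM + 1) scale in HFD (red) and LFD (blue) embryos, with gene labels coloured by role and grey lines from the lower to the upper quartile of all embryos. Both diet medians lie within the quartile range for all 42 genes that passed the filter, and Nsun4, Supv3l1 and Tfb2m stand highest.

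Several of these counts are uncertain because exons overlap other genes. Smart-seq2 does not mark the strand, so reads from a gene and an antisense partner cannot be told apart. Exons of Slirp lay over 97.8% of their length on exons of Alkbh1 and Snw1 on the opposite strand, and across all embryos the log2 CPM (counts per 1000000) of Slirp and Snw1 correlated at r = 0.73 (all embryos, shared reads possible). The opposite overlap was 35.2% for Mterf4, 26.1% for Fastk, 24.2% for Iars2, 18.5% for Mtpap and 10.7% for Fars2. Fastkd5 shared 65.2% of its exon length with Ubox5 on its own strand.

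Promoter sequences from RefSeq (build GRCm38.p6, from 250 bases before to 50 bases after the transcript start) were found for 41 of the 46 genes, in 45 promoters. Hars2, Mterf3, Mtpap, Pars2 and Trnt1 had none. They were searched on both strands for the letters GCGCATGCG, the core of the NRF1 motif, CCGGAAG, the core bound by ETS factors such as GABP, and AAGATGGCG, a form of the YY1 motif. These factors are known regulators of nuclear genes for mitochondria. The NRF1 letters were in 3 of the 45 promoters (6.67%). They were in 1.75% of all 32851 promoters of that length and in 3.4% of the 13282 promoters of genes tested here. The ETS letters were in 16 (35.6%), against 8.86% and 16.4%, and the YY1 letters in 8 (17.8%), against 1.4% and 2.76%. In all 23 genes held at least 1 of the 3 motifs, and no match overlapped a match of another motif. The promoters of the transcription genes Tfb2m, Polrmt and Tfam are printed here, with those of Grsf1, Vars2 and Trit1, whose transcripts went with the mitochondrial mRNA level as described further on. Tefm also held the ETS letters and is not printed. Capitals mark the matches, and each sequence runs 5′ to 3′ along its gene.
Tfb2m, chr1:179546227-179546526, minus strand: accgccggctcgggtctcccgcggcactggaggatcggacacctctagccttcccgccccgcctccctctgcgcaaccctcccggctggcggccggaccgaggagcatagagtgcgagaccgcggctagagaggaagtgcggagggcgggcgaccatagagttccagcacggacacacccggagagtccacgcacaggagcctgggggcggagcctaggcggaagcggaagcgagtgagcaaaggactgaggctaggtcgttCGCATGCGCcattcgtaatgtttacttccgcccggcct
Polrmt, chr10:79746532-79746831, minus strand: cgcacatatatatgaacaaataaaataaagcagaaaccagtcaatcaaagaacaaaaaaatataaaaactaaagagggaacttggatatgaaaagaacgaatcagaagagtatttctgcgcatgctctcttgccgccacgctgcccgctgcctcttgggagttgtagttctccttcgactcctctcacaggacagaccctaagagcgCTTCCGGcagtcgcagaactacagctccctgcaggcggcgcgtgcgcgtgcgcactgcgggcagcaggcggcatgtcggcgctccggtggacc
Tfam, chr10:71237995-71238294, minus strand: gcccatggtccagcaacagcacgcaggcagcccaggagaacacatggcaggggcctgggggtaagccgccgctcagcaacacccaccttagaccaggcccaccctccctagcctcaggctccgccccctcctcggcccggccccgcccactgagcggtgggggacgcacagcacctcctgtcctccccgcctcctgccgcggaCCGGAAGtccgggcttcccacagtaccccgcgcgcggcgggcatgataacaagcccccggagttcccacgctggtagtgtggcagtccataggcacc
Grsf1, chr5:88676122-88676421, minus strand: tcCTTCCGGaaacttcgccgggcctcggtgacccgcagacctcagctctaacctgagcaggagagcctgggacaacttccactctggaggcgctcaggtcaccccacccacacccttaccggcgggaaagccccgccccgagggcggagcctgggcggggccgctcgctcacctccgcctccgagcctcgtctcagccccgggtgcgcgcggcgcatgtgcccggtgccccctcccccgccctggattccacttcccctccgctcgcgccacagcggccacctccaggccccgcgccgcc
Vars2, chr17:35667543-35667842, minus strand: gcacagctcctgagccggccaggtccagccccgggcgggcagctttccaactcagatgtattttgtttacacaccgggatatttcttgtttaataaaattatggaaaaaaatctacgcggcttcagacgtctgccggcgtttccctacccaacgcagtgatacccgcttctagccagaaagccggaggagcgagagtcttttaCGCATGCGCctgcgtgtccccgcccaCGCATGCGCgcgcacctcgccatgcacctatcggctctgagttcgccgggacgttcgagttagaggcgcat
Trit1, chr4:123016343-123016642, plus strand: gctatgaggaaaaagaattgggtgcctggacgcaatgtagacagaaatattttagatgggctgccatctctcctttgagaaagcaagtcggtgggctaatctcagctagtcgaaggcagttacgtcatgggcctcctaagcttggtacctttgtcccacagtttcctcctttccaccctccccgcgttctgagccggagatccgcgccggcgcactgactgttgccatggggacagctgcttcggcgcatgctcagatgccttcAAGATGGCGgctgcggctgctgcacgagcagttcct
The NRF1 letters begin at base 13 of the Tfb2m transcript, whose level was higher in embryos with more mitochondrial mRNA. They stand at -47 and -21 relative to the start of Vars2, whose transcript was lower in those embryos. The ETS letters begin at -43 relative to the start of Polrmt, at -47 in Tfam and at -248 in Grsf1. The YY1 letters begin at base 15 of the Trit1 transcript. The matches in Tfb2m, Vars2, Polrmt and Grsf1 read the motif on the other strand. A match is a description of letters and says nothing of binding in these embryos.

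The first comparison asked whether the diet of the sire went with the level of these transcripts in the embryo. It went with 1 of the 42 genes tested, Trnt1, at a false discovery rate (FDR) of 0.05 over all genes (edgeR quasi-likelihood test). That is 2.38% of the members, beside 2.15% of all 14820 genes (1.26% higher and 0.891% lower in HFD), so the share among these genes was near that of the table. The median log2 fold change, HFD over LFD, was -0.0017 over the 42 genes and 0.01 over all genes, and 19 of the 42 were positive. At an unadjusted p under 0.05 there were 4 members (9.52%), beside 13.1% of all genes. For all 42 the 95% interval of the log2 fold change lay within -1 to 1, and for 31 of them within -0.5 to 0.5. The summed RPKM of all 46 genes had a median of 410 in HFD embryos (lowest 240, highest 507) and of 414 in LFD embryos (lowest 338, highest 497), and the ranges overlapped.

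Trnt1 encodes the enzyme that adds the CCA end to tRNAs, in the cytosol as well as in mitochondria. Its CPM ran from 29.7 over a median of 96.8 to 236 in HFD embryos, and from 42.2 over 87.2 to 183.9 in LFD embryos. The groups overlapped over nearly their whole range, with 79 HFD embryos above the LFD median and 3 above the highest LFD embryo. The log2 fold change was 0.19 ± 0.055 (SE, FDR = 0.037; chr6:106769120-106782474, GRCm38). Trnt1 was higher in HFD in 10 of the 11 ranges of 10 embryo numbers that hold both diets. It was not called when the 38 HFD embryos numbered 31 to 70 were left out (0.13, FDR = 0.33). Nor was it called with the ratio of 2-cell-stage to maternal transcripts as a covariate (0.16, FDR = 0.11), in limma-voom with blocks of embryo numbers (0.19, FDR = 0.18) or with RLE in place of TMM scaling (0.18, FDR = 0.052).

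The 3 precursor cleavage genes did not pass the test, although 2 of them, with Hars2, had the 3 largest fold changes of the 42. Trmt10c and Hsd17b10 form, with the nuclease Prorp, the mitochondrial RNase P that frees the 5′ ends of tRNAs. Trmt10c had 6.64, 70.5 and 154.3 CPM (lowest, median, highest) in HFD and 25.6, 58.4 and 166.9 in LFD embryos, with 80 HFD embryos above the LFD median and none above the highest LFD value. Its log2 fold change was 0.22 ± 0.068 (FDR = 0.054), it was higher in HFD in 9 of 11 number ranges, and 3 of 16 alternatives called it. Hsd17b10 had a median of 2.69 CPM in HFD (highest 38.1) and of 2.32 in LFD embryos (highest 26.995), with 0 as the lowest value in both, and a log2 fold change of 0.42 ± 0.26 (FDR = 0.51). Elac2, the RNase Z that cuts the 3′ ends, stood at -0.02 ± 0.10 (FDR = 0.98), and Prorp at -0.02 ± 0.071 (FDR = 0.96).

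Of the synthetases 0 of 13 were called by edgeR, with 1 at an unadjusted p under 0.05, the valine enzyme Vars2. Vars2 had a median of 11.6 CPM in HFD embryos (lowest 0.76, highest 31.8) and of 13.7 in LFD embryos (lowest 0, highest 66.2), and 41 HFD embryos lay above the LFD median. Its log2 fold change was -0.36 ± 0.12 (FDR = 0.090), the lowest of the 42, although Vars2 was higher in HFD in 5 of the 11 number ranges. DESeq2, a fit with no low-count filter and a fit without the libraries under 15000 detected genes each called it, at FDR = 0.041, 0.019 and 0.017, and the other 13 of 16 alternatives did not. Hars2, the histidine enzyme, had medians of 3.53 CPM in HFD (highest 22.7) and 2.75 in LFD embryos (highest 24.4), 0 as the lowest in both, and a log2 fold change of 0.30 ± 0.22 (FDR = 0.61). Fars2, the phenylalanine enzyme, was at -0.0014 ± 0.051, and Mars2, the methionine enzyme, at 0.01 ± 0.13.

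The other low ends of the list were Fastk, the founding member of its RNA-binding family, and Polrmt. Fastk had a median of 11.2 CPM in HFD (lowest 0, highest 32.4) and of 13.3 in LFD embryos (lowest 0, highest 37.3), with a log2 fold change of -0.27 ± 0.13 (FDR = 0.355). Polrmt had 0.78, 22.1 and 64.6 CPM in HFD and 4.33, 25.3 and 73.9 in LFD embryos, with -0.21 ± 0.11 (FDR = 0.408). No embryo of the HFD group exceeded the highest LFD value of either gene. Tfam was at -0.05 ± 0.21, Tfb2m at 0.06 ± 0.053 and Tefm at -0.05 ± 0.30, none past the threshold. Lrpprc was at -0.20 ± 0.155, and Supv3l1, Slirp and Mtpap each at -0.02 with SE of 0.0710, 0.0571 and 0.0765.

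**Figure D2:**
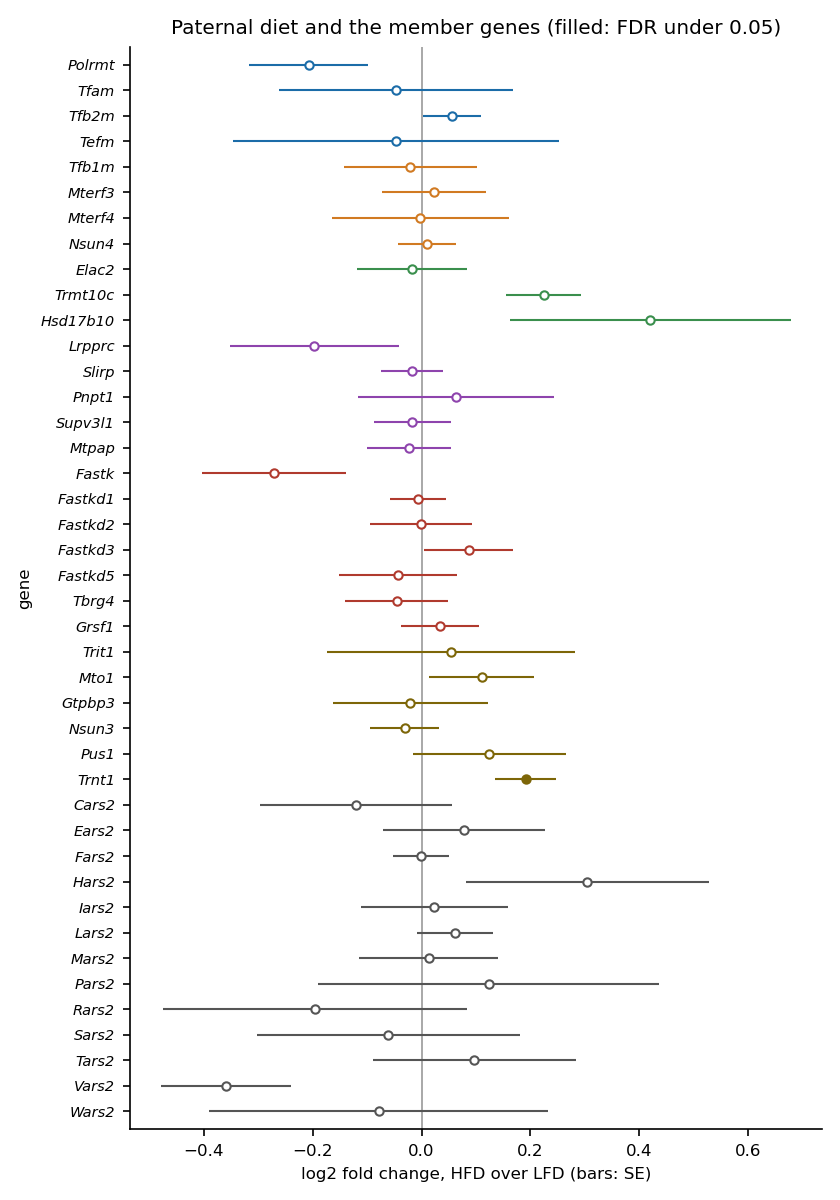
Log2 fold change of each of the 42 tested genes, HFD over LFD, with bars of 1 SE, coloured by role as in the plot of levels, and a filled point where the FDR is under 0.05. Trnt1 is the only filled point, and the widest bars belong to genes of few counts such as Tefm, Pars2 and Wars2.

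Of the 8 mitochondrial tRNAs that passed the filter and have their synthetase among these genes, 5 were higher in HFD under the same test. In libraries primed on poly(A), reads in a tRNA gene cannot be told apart from reads of precursors that still hold the tRNA. The methionine tRNA mt-Tm had medians of 9.21 CPM in HFD (lowest 2.55, highest 47.98) and 6.03 in LFD embryos (lowest 1.499, highest 18.5), and a log2 fold change of 1.02 ± 0.12 (FDR = 1.05e-10). Beside it stood its synthetase Mars2 at 0.01 and Nsun3, which methylates this tRNA in its anticodon, at -0.03 ± 0.063. The log2 fold change was 0.55 ± 0.14 for mt-Ti (FDR = 0.015) beside 0.02 for Iars2, 0.50 ± 0.10 for mt-Tp (FDR = 0.00092) beside 0.12 for Pars2, and 0.48 ± 0.11 for mt-Tt (FDR = 0.0051) beside 0.10 for Tars2. For mt-Ts1 it was 0.30 ± 0.083 (FDR = 0.026) beside -0.06 for Sars2. The other cognate tRNAs that passed the filter, mt-Ta, mt-Te and mt-Tw, were not called (0.10, 0.32 and 0.25). Of the 8 synthetases that belong to these tRNAs, Aars2 had not passed the filter and the other 7 were not called. Of the 5 calls 4 were lost without the 38 HFD embryos numbered 31 to 70. Then mt-Tm was at 0.57 (FDR = 0.0024), while mt-Ti (0.21, FDR = 0.73), mt-Tp (0.07, FDR = 0.91), mt-Tt (0.02, FDR = 0.98) and mt-Ts1 (0.27, FDR = 0.13) were not called. The mt-tRNA level without mt-Ts1 was 7.92 ± 0.56 (SD) in those embryos, 6.62 ± 0.58 in the other 84 HFD embryos and 6.52 ± 0.54 in LFD embryos. No label sets this range of numbers apart. As its embryos are high on that level, the loss of mt-Ti, mt-Tp and mt-Tt without them is not separate evidence.

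Further lists of related genes were set against the diet of the sire as well. Of all genes 2.15% were called by edgeR, and 13.1% were at an unadjusted p under 0.05. Among 31 further genes for mitochondrial RNA processing and modification, 1 was called, Angel2, which belongs to a family of deadenylases and phosphatases, at 0.16 ± 0.049 (FDR = 0.048). Among 7 nuclear regulators of mitochondrial genes, 1 was called, the transcription factor Yy1, at 0.35 ± 0.095 (FDR = 0.019). Yy1 had 7.55, 37.9 and 120.1 CPM (lowest, median, highest) in HFD and 2.12, 30.1 and 70.4 in LFD embryos. Without the HFD embryos numbered 31 to 70 neither was called (Angel2 0.06, FDR = 0.76, and Yy1 0.22, FDR = 0.42). The calls above were 3.23% of the 31 genes and 14.3% of the 7. None of 6 other charging genes, 10 mitochondrial DNA maintenance genes or 18 cytosolic synthetases was called by edgeR. At an unadjusted p under 0.05 there were 0, 2 and 1 of them. At that p there were also 7 of the 31 RNA processing genes and 2 of the 7 regulators.

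The second comparison set each gene against the mitochondrial RNA content of its own embryo. The content was the log2 of the summed counts of 1 class of mitochondrial transcripts (13 mRNAs, 2 rRNAs or 22 tRNAs) per 1000000 nuclear counts. The slope is the log2 change of the gene's nuclear-scaled level for each rise of the content by 1 log2 unit, with diet in the fit and mitochondrial genes left out of the table. A higher ratio can come from more mitochondrial RNA or from less nuclear RNA, and these cannot be told apart. The mt-mRNA level was 15.61 ± 0.50 (SD) in HFD and 15.24 ± 0.50 in LFD embryos, the mt-rRNA level 12.85 ± 0.59 and 12.29 ± 0.72, and the mt-tRNA level 9.11 ± 0.55 and 8.72 ± 0.57. The 3 levels share a denominator and went together (r = 0.92 for mt-mRNA with mt-tRNA, 0.79 with mt-rRNA, all embryos), so their slopes are not separate evidence. The mt-mRNA level also correlated with detected genes at r = -0.42 within HFD and 0.07 within LFD embryos, and with the ratio of 2-cell-stage to maternal transcripts at 0.25 and 0.06. Without either as a covariate 10 of the 42 genes were called on the mt-mRNA level. With detected genes as a covariate 9 were called, 7 of them shared with the 10 (31.5% of all genes). With the ratio as a covariate 11 were called, 9 of them shared (31.9% of all genes). Without the HFD embryos numbered 31 to 70 again 10 were called, but only 6 of them were shared (29.3% of all genes).

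With the mt-mRNA level, 4 of the 42 genes rose and 6 fell, which is 23.8% of them, beside 34.9% of all 14805 nuclear genes (18.4% positive and 16.5% negative). The difference between the 2 shares was not tested. The 4 with positive slopes were Pus1 (0.46 ± 0.16), a pseudouridine synthase of tRNAs, Grsf1 (0.20 ± 0.068), an RNA-binding protein of the RNA granules, Tfb2m (0.18 ± 0.055) and Fars2 (0.11 ± 0.046). The 6 with negative slopes were Trit1 (-0.70 ± 0.24), which puts an isopentenyl group on tRNAs next to the anticodon, Elac2 (-0.39 ± 0.10), Mtpap (-0.35 ± 0.078), the mitochondrial poly(A) polymerase, Vars2 (-0.26 ± 0.10), Supv3l1 (-0.25 ± 0.074) and Nsun4 (-0.16 ± 0.049). Elac2, Trit1 and Pus1 also act on tRNAs outside mitochondria. All 5 genes for RNA stability, polyadenylation and decay had negative slopes, while 7811 of all 14805 nuclear genes had positive ones. Of the 5, 2 were called (40%, beside 34.9% of all). Slirp (-0.01 ± 0.061) and Pnpt1 (-0.15 ± 0.19) lay within their SE of 0. The transcription genes Polrmt (-0.05 ± 0.12) and Tfam (0.07 ± 0.21) were not called, and the slope of Tefm was 0.52 ± 0.29 (FDR = 0.16).

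In CPM, Elac2 had 0, 47.2 and 160 (lowest, median, highest) in HFD and 0.92, 51.1 and 127.5 in LFD embryos, and Mtpap 4.17, 50.5 and 96.4 in HFD and 2.58, 54.6 and 127.6 in LFD embryos. Tfb2m had 52.5, 114.1 and 232.2 in HFD and 36.9, 117.9 and 194.6 in LFD embryos. Over the interquartile range of the mt-mRNA level (0.60 log2 units) the fitted change was -14.9% for Elac2, -13.3% for Mtpap, -25.2% for Trit1, +7.76% for Tfb2m, +8.71% for Grsf1 and +20.8% for Pus1. The median biological coefficient of variation of the 42 genes between embryos was 0.575, wider than any of these changes. Embryos at the ends of the level carried part of some slopes. Without the 5 embryos farthest from the median mt-mRNA level, Mtpap went from -0.35 to -0.19 (FDR = 0.058) and Trit1 to -0.55 (FDR = 0.071), neither called, while Elac2 was at -0.38 (FDR = 0.0021), Tfb2m at 0.28 (FDR = 2.22e-05), Pus1 at 0.58 (FDR = 0.0050) and Grsf1 at 0.24 (FDR = 0.015). Without the 8 libraries under 15000 detected genes, Mtpap was at -0.23 (FDR = 0.011), Elac2 at -0.33 (FDR = 0.0026) and Tfb2m at 0.25 (FDR = 0.00020). Grsf1 was not called there (0.18, FDR = 0.068). Of 12 alternatives Elac2, Mtpap and Tfb2m each passed the threshold in 11, Trit1 in 9 and Grsf1 in 8. Pus1 passed it in 7 (slope 0.33 to 0.69, FDR up to 0.22). With limma-voom 12 of the 42 genes were called on this level, 7 of them shared with the 10 of edgeR, and 3 of the 12 were positive. The balance of signs moved over all genes too. Of all genes called 37.5% were positive with limma-voom, beside 52.8% with edgeR, and the median slope of all genes was -0.062 beside 0.022.

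**Figure D3:**
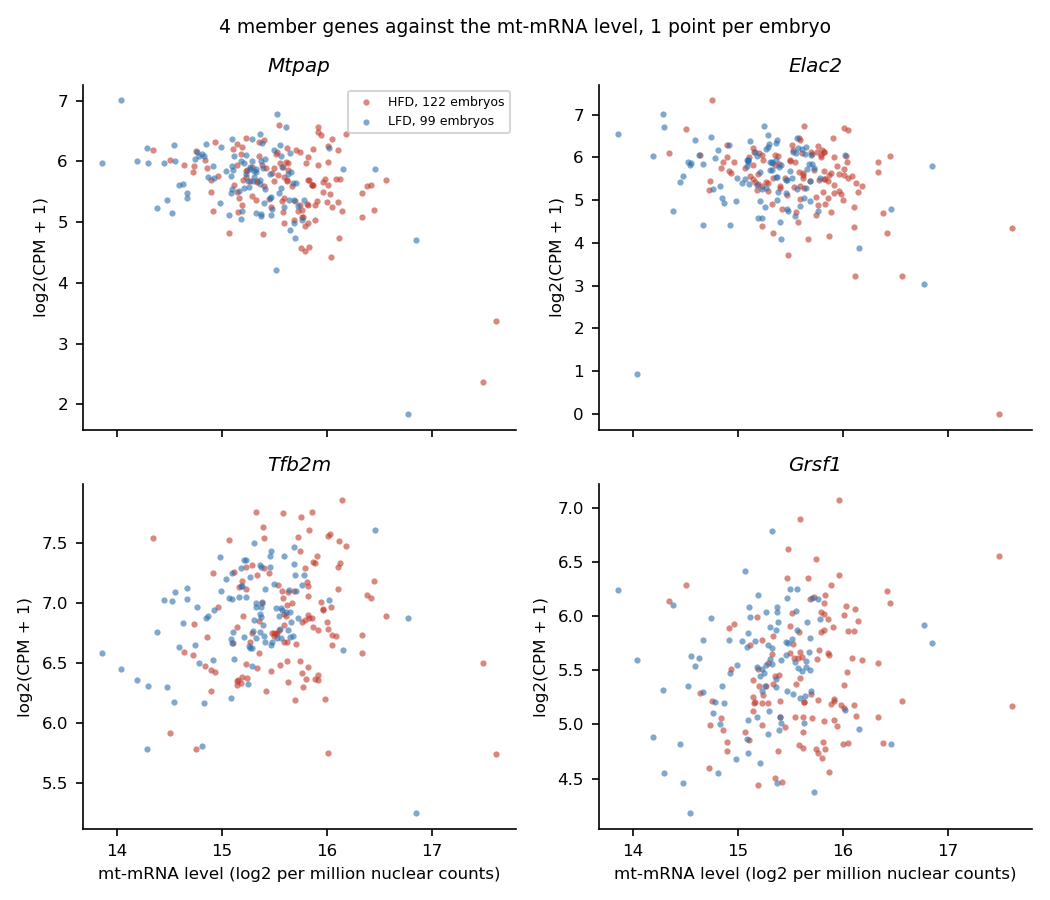
Level of Mtpap, Elac2, Tfb2m and Grsf1 on the log2(CPM + 1) scale against the mt-mRNA level (log2 per 1000000 nuclear counts), 1 point per embryo, HFD in red and LFD in blue. Mtpap and Elac2 trend down and Tfb2m and Grsf1 up, with wide scatter, and the few embryos of the highest mt-mRNA level lie low in Mtpap.

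With the mt-rRNA level 3 genes rose and 4 fell, or 16.7% of the 42, beside 26.4% of all genes (14.3% positive and 12.1% negative). The positive slopes were those of Tfb1m (0.27 ± 0.0935), which dimethylates the 12S rRNA, Lars2 (0.15 ± 0.054), the leucine enzyme, and Fars2 (0.13 ± 0.035). The negative slopes were those of Vars2 (-0.24 ± 0.079), Mtpap (-0.21 ± 0.0595), Trnt1 (-0.16 ± 0.041) and Nsun4 (-0.15 ± 0.0375). Without the 5 embryos farthest from the median mt-rRNA level, 3 of the 42 were called, Nsun4, Lars2 (0.22, FDR = 0.0072) and Vars2 (-0.34, FDR = 0.0048), while Tfb1m (0.26, FDR = 0.069), Fars2 (0.06, FDR = 0.29), Mtpap (-0.09, FDR = 0.37) and Trnt1 (-0.09, FDR = 0.18) were not. The Vars2 slope was -0.05 (FDR = 0.83) in HFD embryos alone and -0.42 (FDR = 0.0051) in LFD embryos alone, and limma-voom did not call it (-0.22, FDR = 0.13).

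With the mt-tRNA level 3 genes rose and 6 fell, or 21.4% of the 42, beside 36.5% of all genes (19.9% positive and 16.7% negative). The positive slopes were those of Grsf1 (0.23 ± 0.061), Lars2 (0.22 ± 0.060) and Tfb2m (0.16 ± 0.049). The negative slopes were those of Trit1 (-0.66 ± 0.21), Mtpap (-0.28 ± 0.069), Fastkd5 (-0.25 ± 0.0945), Elac2 (-0.21 ± 0.089), Fastkd3 (-0.21 ± 0.0745) and Nsun4 (-0.13 ± 0.045). Fastkd5 takes part in cutting mitochondrial precursors at sites that no tRNA flanks. Of the 9 tested genes for precursor cleavage and tRNA modification, Trit1 and Elac2 were called, while Trnt1 (-0.10 ± 0.049), Mto1 (-0.03 ± 0.089), Gtpbp3 (0.30 ± 0.14) and Nsun3 (-0.09 ± 0.056) were among those that were not. Most of the mt-tRNA level is mt-Ts1, with medians of 399 CPM in HFD and 329 in LFD embryos. With mt-Ts1 left out of the level, the slope of Tfb2m went from 0.16 to -0.02 (FDR = 0.76), Lars2 to 0.11 (FDR = 0.060), Fastkd3 to -0.0055 (FDR = 0.95) and Fastkd5 to -0.06 (FDR = 0.58). These 4 lost the call and 5 others gained it (Supv3l1, Fastk and Vars2 negative, Pus1 and Fars2 positive), so that 5 of the 9 stayed among 10 called. The mt-tRNA level correlated with the summed macrophage transcripts at r = 0.33 in HFD and 0.23 in LFD embryos, and with that sum as a covariate 9 of the 42 were called, 8 of them shared. With RLE scaling 5 of the 42 rose and 3 fell.

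Of the 42 genes, 2 were called on all 3 levels, Mtpap and Nsun4, both negative, 7 on 2 levels, 6 on 1 level and 27 on none. The shares were 4.76%, 16.7%, 14.3% and 64.3%, beside 18.8%, 13.9%, 13.6% and 53.7% of all nuclear genes. All 3 slopes were positive for 14 genes (33.3%) and negative for 22 (52.4%), beside 42.2% and 36.5% of all. Gm26865, the gene opposite Mtpap, had a median of 4.20 CPM beside 50.9 CPM of Mtpap, went with it at r = 0.60 over all embryos, and had a slope of -0.26 on the mt-mRNA level (FDR = 0.11). Lyrm4, opposite Fars2, had 165.2 CPM beside 128.3 CPM of Fars2 and was called with a slope of 0.41 (FDR = 2.33e-08). Slc4a2, opposite Fastk, had 5.20 CPM beside 12.4 CPM of Fastk and a slope of -1.08 (FDR = 9.28e-05). Rab3gap2, opposite Iars2, had 136.8 CPM beside 7.62 CPM of Iars2 and a slope of -0.47 (FDR = 7.12e-08). The part of these neighbours in the counts of Fars2, Fastk and Iars2 was not tested.

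**Figure D4:**
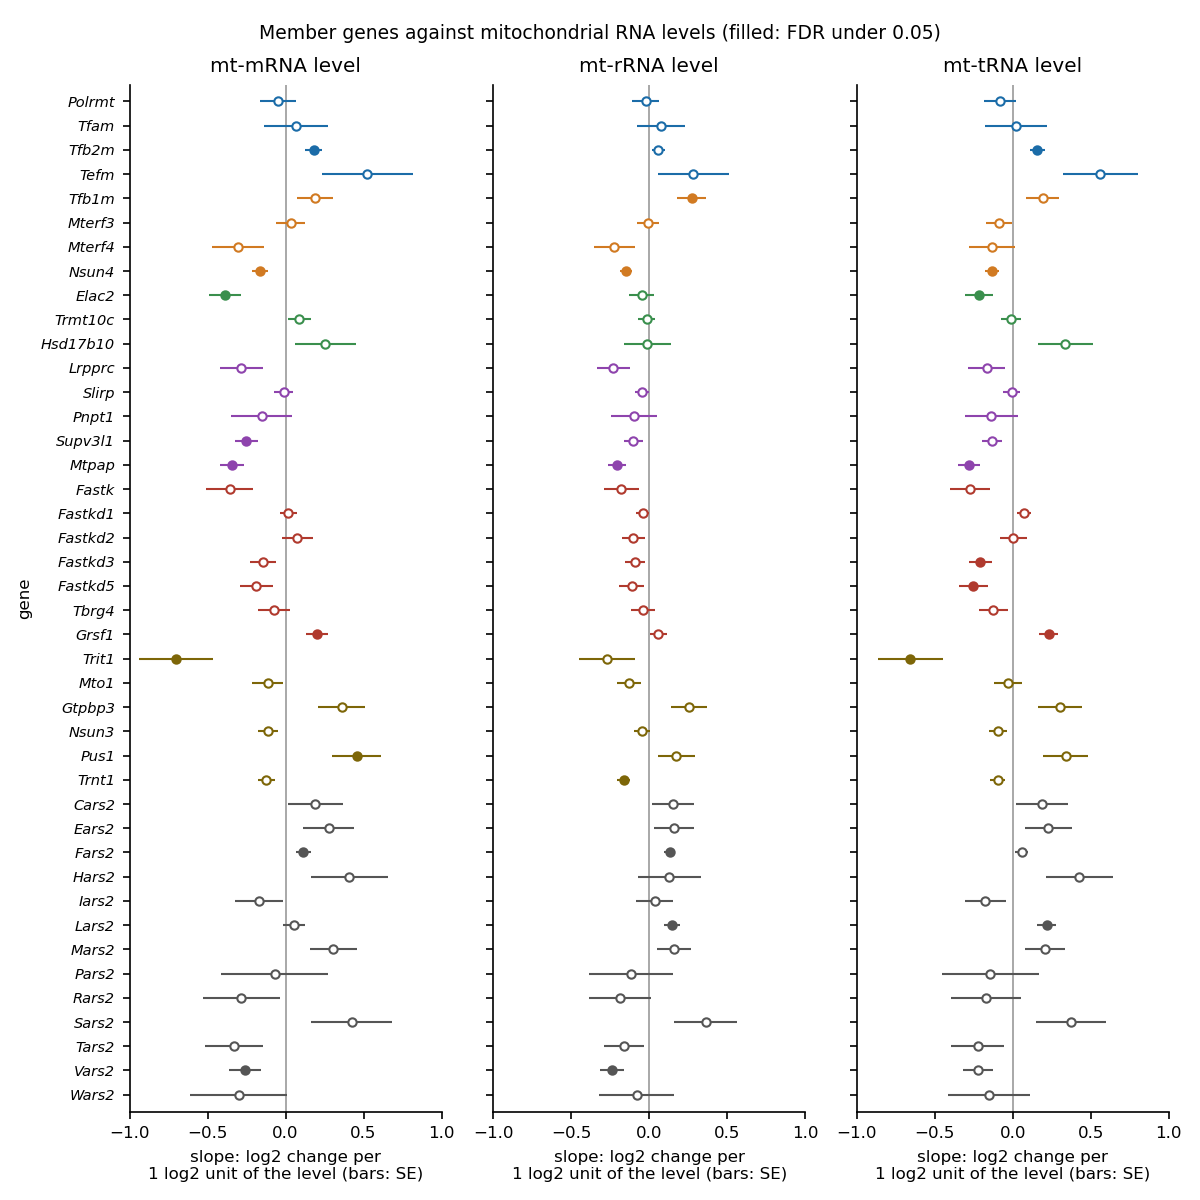
Slope of each of the 42 genes on the mt-mRNA, mt-rRNA and mt-tRNA level of the embryo (log2 change per 1 log2 unit) with bars of 1 SE, coloured by role as in the plot of levels, and filled where the FDR is under 0.05. Mtpap and Nsun4 are filled and negative in all 3 panels, and the transcription genes Polrmt and Tfam are open and near 0 in all 3.

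To ask whether the slopes depended on the diet, the difference of the mt-mRNA slopes (HFD minus LFD) was tested in 1 fit. It was called in 0 of the 42 genes by edgeR, beside 0.203% of all genes (0.162% positive and 0.0405% negative). At an unadjusted p under 0.05 there were 4 members, Vars2 (0.47 ± 0.21), Tars2 (0.78 ± 0.38), Mars2 (-0.60 ± 0.30) and Mterf3 (0.36 ± 0.18), at FDR from 0.41 to 0.50. These are 9.52% of the 42, beside 9.86% of all genes at that p, and no other tool was run on this test. In HFD embryos alone 5 of the 42 members were called on the mt-mRNA level, beside 22.03% of all 14805 nuclear genes. In LFD embryos alone 5 of the 42 were called as well, beside 20.05% of all. The differences from these shares were not tested.

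The cytosolic synthetases serve as the nearest relatives of the mitochondrial ones. With the mt-mRNA level 1 of the 18 cytosolic synthetases rose and 7 fell (44.4% called). Of the 13 mitochondrial ones 1 rose and 1 fell (15.4% called). Of all nuclear genes 34.9% were called (18.4% positive and 16.5% negative). With the mt-rRNA level 0 rose and 5 fell among the cytosolic ones, beside 2 and 1 among the mitochondrial ones. Of all genes 14.3% rose and 12.1% fell with that level. With the mt-tRNA level 1 cytosolic enzyme rose and 8 fell, beside 1 and 0 of the mitochondrial ones and 19.9% and 16.7% of all genes. Among those that fell with the mt-mRNA level were Iars (-0.45 ± 0.061) and Wars (-0.47 ± 0.094), the isoleucine and tryptophan enzymes of the cytosol. Their mitochondrial counterparts Iars2 and Wars2 had slopes of -0.17 ± 0.15 and -0.30 ± 0.31, not called. The Iars2 counts may hold reads of Rab3gap2, the gene opposite it. The median slope on the mt-mRNA level was -0.21 for the cytosolic and 0.05 for the mitochondrial enzymes, beside 0.02 for all genes. The difference between the lists was not tested, and the median level was 0.798 RPKM for the mitochondrial and 5.15 RPKM for the cytosolic enzymes.

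**Figure D5:**
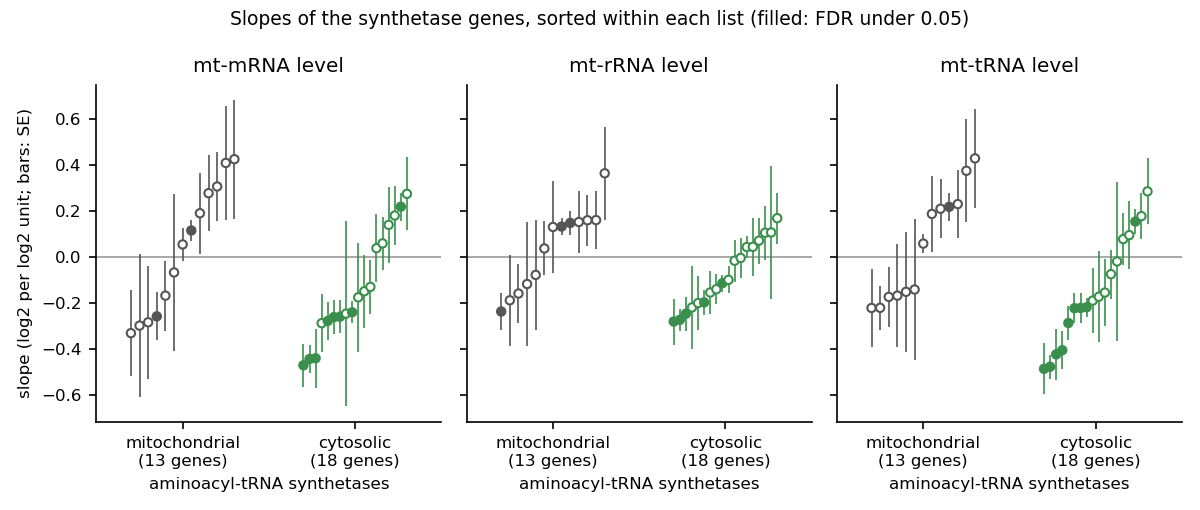
Slopes of the 13 mitochondrial (grey) and 18 cytosolic (green) aminoacyl-tRNA synthetases on the mt-mRNA, mt-rRNA and mt-tRNA level, sorted within each list, with bars of 1 SE and filled points where the FDR is under 0.05. The filled cytosolic points lie mostly below 0, and the mitochondrial points lie on both sides with longer bars.

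In the other lists, 5 of 31 RNA processing genes rose with the mt-mRNA level and 3 fell (25.8% called). Of 10 mitochondrial DNA maintenance genes 3 rose and 1 fell (40%), and of 7 nuclear regulators 3 rose and 1 fell (57.1%). Of the 6 other mitochondrial charging genes 0 rose and 1 fell (16.7%), Gars at -0.39 ± 0.071 (FDR = 2.01e-06). The share of all nuclear genes was 34.9%, and the differences from it were not tested. The regulators that went with the mt-mRNA level were Yy1 (0.49), Esrra (0.33), Gabpa (0.24) and Nrf1 (-0.31). The NRF1 letters stand in the promoters of Tfb2m (slope 0.18), Vars2 (-0.26) and Wars2 (-0.30, not called). The ETS letters stand in those of 16 members and the YY1 letters in those of 7. Any link between these regulators and the members was not tested.

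Last, known partners were compared embryo by embryo within each diet by Pearson's r of log2(CPM + 1), with 2-sided permutation tests adjusted over 10 tests. Over all 861 pairs of the 42 genes the median r was 0.06 (95th percentile 0.38) for HFD and 0.03 (95th percentile 0.36) for LFD. Polrmt and Tfb2m, which act at the same promoters, had r = 0.43 in HFD embryos (Spearman's rho 0.45, adjusted permutation p = 0.0001 for both, raw p = 1e-05, the smallest the permutations can give) and 0.11 in LFD embryos (rho 0.10, adjusted permutation p = 0.55 and 0.66). Among HFD embryos numbered 31 to 70 r was 0.09 (38 embryos), and among the other 84 it was 0.58. Pnpt1, the exonuclease, and its helicase Supv3l1 had r = 0.36 in HFD (rho 0.24, adjusted permutation p = 0.0002 and 0.043) and 0.23 in LFD embryos (rho 0.03, adjusted permutation p = 0.054 and 0.80), both within the 95th percentile of all pairs. Without the 2 most distant embryos r was 0.40 for Polrmt and Tfb2m and 0.37 for Pnpt1 and Supv3l1 in HFD. Whether r differed between the diets was not tested.

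Lrpprc and Slirp, which form a stable complex as proteins, had r = -0.05 in HFD (rho -0.08, adjusted permutation p = 0.98 and 0.66) and -0.25 in LFD embryos (rho -0.22, adjusted permutation p = 0.046 and 0.11), with the overlap of Slirp with Snw1 standing beside this value. For Trmt10c and Hsd17b10 r was -0.03 and 0.00, and for Mto1 and Gtpbp3, which modify the same tRNA base together, 0.02 and 0.01, with adjusted permutation p = 0.98 for each.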

How the data were processed

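The deposited table holds raw counts per gene, made by the authors from paired Smart-seq2 reads of 221 single embryos. Per the study's methods and the submitters' processing notes, reads were trimmed with Trim Galore 0.6.6, aligned with STAR 2.7.10a to GRCm38 carrying the Staudach mitochondrial sequence, checked with MultiQC 1.11 and counted with featureCounts at strand setting 2, although these libraries do not mark the strand. The libraries carry no molecular identifiers, so PCR copies count as reads. The members and all gene lists were chosen with earlier results of these data known.

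Totals ran from 1937251 to 17246791 counts per embryo. Counts were tested with edgeR 4.0.16 under R 4.3.3 by quasi-likelihood with TMM scaling, after filterByExpr on the diet groups. P-values were adjusted over all genes (Benjamini-Hochberg, threshold 0.05). Slopes on the mitochondrial level (summed class counts plus 0.5 per 1000000 nuclear counts, log2) were fitted with diet as a covariate on nuclear genes. Each embryo was 1 replicate, as no label gives sire, date or sex, so p-values measure the spread between embryos only. Among the 50 most similar pairs of embryos the lowest chi-square per degree of freedom was 14.3, so none were merged.

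Partner correlations used log2(CPM + 1) and 100000 permutations (SciPy 1.17.1). Full statistics are given for members called by diet, the 3 largest and 3 smallest fold changes, the 3 highest and 3 lowest levels and the 3 largest and 3 smallest called slopes on each level, the partner pairs, the cognate tRNAs and the wider-list genes called by diet. 1 further gene of that rule is not reported here. Alternatives were RLE scaling, no low-count filter, DESeq2 1.42.0, limma-voom (limma 3.58.1), nuclear counts, number blocks and libraries left out. Others had covariates for detected genes, stage, macrophage and Y-linked transcripts. Library sizes after the filter, the partner pairs without embryos, the mt-tRNAs, Yy1 and Angel2 without HFD numbers 31 to 70 and the slopes without the 5 embryos of most distant level were added after seeing the data. Scripts were tested on simulated data.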

Additional observations from a re-analysis of the deposited data

How the results depend on the processing

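By diet, the number of the 42 genes called was 1 and became 0 with RLE scaling, in limma-voom with blocks of embryo numbers, without the HFD embryos numbered 31 to 70 and with the 2-cell to maternal ratio as a covariate. It became 3 with no low-count filter and with DESeq2, and 2 without the libraries under 15000 detected genes and with detected genes as a covariate. Trnt1 passed the threshold in 12 of 16 alternatives (log2 fold change 0.13 to 0.22, FDR 0.0093 to 0.33), and Trmt10c and Vars2 in 3 of 16 each. Over all genes the 318 calls became 7030 with no filter, 86 with number blocks, 551 with number range as a factor and 563 without the libraries under 15000 detected genes, and fell from 2.15% to 1.19% of all genes without the HFD embryos numbered 31 to 70. The cause of these shifts was not tested.

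Embryo numbers shared by both diets did not pair the embryos: over 94 pairs the mean correlation of their deviations was 0.015 (lowest -0.36, highest 0.33), 20 pairs lay over 0.1, and 1 HFD embryo correlated best with its own number. With the replicate block (embryo number, limma-voom) 1 of the 42 genes and 782 of all genes were called, and without the block on the same embryos 1 and 785.

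On the mt-mRNA level 10 genes were called, with 5 when HFD embryos were fitted alone and 5 for LFD. On the mt-rRNA level the 7 calls became 2 in HFD alone, 4 in LFD alone and 3 without the 5 embryos of most distant level. On the mt-tRNA level the 9 calls became 3 in HFD alone and 3 in LFD alone. These fits hold fewer embryos. Over all genes, calls without a filter were 9207, 7279 and 11429 on the 3 levels, in HFD alone 3261, 1540 and 3132, in LFD alone 2968, 2504 and 3123, and on mt-rRNA without the 5 embryos 2295. The slope of Tfb2m on the mt-tRNA level reversed to -0.018 without mt-Ts1. The slope difference between diets was called in 1304 genes with no filter, 48 with RLE and 5 without the HFD embryos numbered 31 to 70, with 0 members in each. Without those embryos the diet difference of mt-Ta, not called, went to -0.020. Of 344 alternative values of named genes, 278 kept direction and side of the threshold, 58 lost the call, 6 gained it and 2 reversed.

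The partner correlations near 0 changed sign: Trmt10c with Hsd17b10 to 0.087 in HFD and -0.0021 in LFD without the 2 farthest embryos, and Mto1 with Gtpbp3 to -0.16 in LFD without them and to -0.074 in HFD without numbers 31 to 70. Few counts limit the diet comparison most for genes such as Tefm, Pars2 and Wars2, whose SE was about 0.3.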
